A study of Mus musculus with 6 samples.

Results

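The RANKL, OPG and M-CSF axis is the set of signals that makes osteoclasts from marrow precursors. It was followed here through 7 genes taken by symbol, namely Tnfsf11, Tnfrsf11b, Tnfrsf11a, Lgr4, Traf6, Csf1 and Csf1r. All 7 were found among the 54532 genes of the table, each in 1 row. The study measured RNA of mouse femur by sequencing, and its labels give 6 samples in 2 groups of 3. They are wild-type animals dosed orally with the ginger phenol zingerone (Zin), at 100 mg/kg each day over 8 weeks, and wild-type animals given saline and labelled OVX, for ovariectomy, the surgical model of bone loss after the menopause. The labels do not say whether the zingerone mice were ovariectomized, nor which animals gave which sample. Only the 3 OVX columns carried a library name found in the labels, so the values below describe OVX femur and the zingerone samples were not analysed here. The titles give 8, 9 and 10 weeks to OVX libraries 1, 2 and 3, which leaves 1 library for each week, so week and library cannot be told apart.

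RANKL, the product of Tnfsf11, is a ligand that osteocytes, osteoblasts, stromal cells and lymphocytes present to osteoclast precursors. It binds RANK, the product of Tnfrsf11a, which signals through the ubiquitin ligase TRAF6 to NF-kB and the transcription factor NFATc1. OPG, the product of Tnfrsf11b, is a secreted decoy receptor that captures RANKL, so the balance of both is widely used as a readout of the drive to bone resorption. Lgr4, a receptor of R-spondins, has been described in mice as another receptor for RANKL that restrains osteoclast formation. M-CSF, the product of Csf1, keeps precursors alive and dividing through its receptor tyrosine kinase Csf1r. Ovariectomy is known for shifting this axis towards resorption, but no sham-operated group is among the samples, so no such shift could be tested.

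The libraries held 17017907, 16964740 and 16581579 reads over the listed genes in libraries 1, 2 and 3. Values are FPKM, fragments per kilobase of gene scaled to library size, and 14011 genes reached a mean of at least 1 FPKM. The labels also name RAW264.7, a macrophage-like cell line, and osteoclast precursors, whereas the erythroid beta-globin gene Hbb-bs stood at 20397, 22806 and 26898 FPKM and the bone collagen gene Col1a1 at 614, 1597 and 364 FPKM in libraries 1, 2 and 3, so genes of red cells and of osteoblasts were present. Library 2 stood apart in its tissue markers. The summed FPKM of 11 cartilage genes was 24.9, 638 and 58.2 in libraries 1, 2 and 3, that of 12 osteoblast genes 2646, 6305 and 1858, and that of 10 skeletal muscle genes 1371, 115 and 881. The cartilage genes Chad and Col2a1 had 2.96, 188 and 23.1 FPKM and 17.1, 165 and 12.4 FPKM, and Snorc, another cartilage gene, was at 0 in library 1. Among blood and vessel lists, 7 megakaryocyte genes summed to 1508, 996 and 1563, lowest in library 2. The other sums were 24225, 26449 and 24641 for neutrophils, 43364, 48410 and 55601 for erythroid cells, 580, 527 and 528 for B cells, 92.3, 75.2 and 79.4 for T and NK cells and 67.3, 65.3 and 66.7 for endothelium. Marrow stroma summed to 370, 408 and 385 and osteocytes to 127, 185 and 150. When the 3 libraries were set side by side, 38.7% of tested genes differed by more than counting noise allows (reads compared by a chi-square test, with p adjusted by Benjamini-Hochberg and a threshold of 0.05), and 5.89% spanned at least 2-fold on the log2(FPKM + 1) scale. These tests compare libraries and not conditions.

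The promoters of the ligand gene and of its receptor gene are shown because this pair starts the signal that the axis is named for. Of the 7 genes, 5 had an entry in the RefSeq promoter table of build GRCm38.p6, and Tnfrsf11b and Csf1r had none. Each sequence is the 250 bases before the RefSeq start, with matches to the searched motifs in capitals. The Tnfsf11 window is chr14:78308044-78308293 on the minus strand and the Tnfrsf11a window is chr1:105780473-105780722 on the plus strand.
Tnfsf11: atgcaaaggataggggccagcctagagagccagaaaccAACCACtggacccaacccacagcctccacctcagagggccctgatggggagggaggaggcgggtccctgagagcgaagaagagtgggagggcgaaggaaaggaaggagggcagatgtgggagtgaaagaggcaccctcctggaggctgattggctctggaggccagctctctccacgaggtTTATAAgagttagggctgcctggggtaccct
Tnfrsf11a: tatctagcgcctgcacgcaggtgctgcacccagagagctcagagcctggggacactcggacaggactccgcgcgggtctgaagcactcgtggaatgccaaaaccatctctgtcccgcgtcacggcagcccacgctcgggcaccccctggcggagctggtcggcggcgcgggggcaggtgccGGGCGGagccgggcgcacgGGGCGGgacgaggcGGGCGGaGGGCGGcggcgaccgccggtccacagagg
Motifs were searched on both strands, as TATAA for a TATA element, AACCAC for the core bound by RUNX factors, GGGCGG for an Sp1 box and TGANTCA for AP-1. Among 32851 RefSeq promoter windows of this length, 22.8% held TATAA, 10.8% AACCAC, 32.7% GGGCGG and 6.75% TGANTCA. In the Tnfsf11 window TATAA matched on both strands in 1 overlapping stretch, 31 to 26 bases before the start, and AACCAC matched 212 to 207 bases before it. The Tnfrsf11a window held 4 matches to GGGCGG, between 69 and 24 bases before the start, and no match to the other 3. The windows had 60.4% G and C for Tnfsf11 and 73.6% for Tnfrsf11a, against a median of 52.4% over all windows. The windows of Traf6 and Csf1 each held 2 matches to GGGCGG and that of Lgr4 held no match to the 4 motifs. These matches are letters only, and binding was not measured.

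M-CSF receptor RNA was the most abundant of the axis and RANK RNA the least. By mean level the order was Csf1r at 39.7 ± 6.90 FPKM, Csf1 at 11.2 ± 1.40, Traf6 at 7.37 ± 0.278, Tnfrsf11b at 3.52 ± 2.67, Tnfsf11 at 2.21 ± 0.816, Lgr4 at 2.09 ± 1.10 and Tnfrsf11a at 1.50 ± 0.544 (SD, n = 3 libraries). Csf1r, Csf1 and Traf6 held places 1, 2 and 3 in every library. The other 4 changed places between libraries, and neighbours in this order had means that differed by less than the larger SD of the pair. Tnfrsf11a was below Tnfsf11 in all 3 libraries. Among all listed genes Csf1r ranked 1317 by mean FPKM, Csf1 4967, Traf6 6817, Tnfrsf11b 9896, Tnfsf11 11504, Lgr4 11688 and Tnfrsf11a 12719. No label says that the libraries came from separate animals, so the SD is the spread between these libraries, which may be technical in part.

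**Figure D1:**
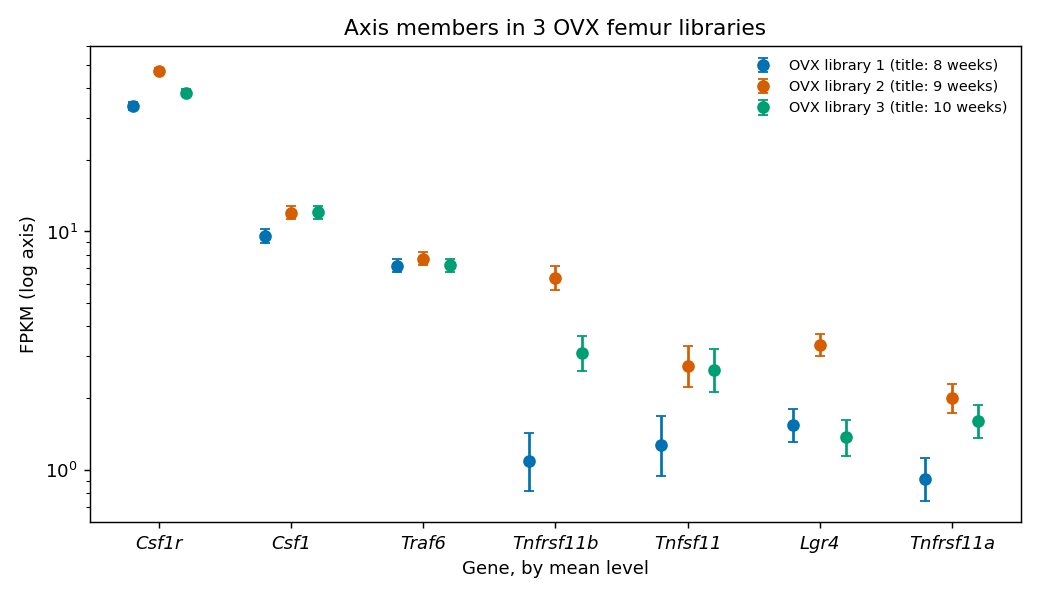
FPKM (log axis) of the 7 genes in OVX libraries 1, 2 and 3, ordered by mean level, with exact Poisson 95% intervals of the reads as bars. Traf6 lies between 7.19 and 7.69 FPKM in all 3 libraries, while Tnfrsf11b runs from 1.09 FPKM in library 1 to 6.38 FPKM in library 2.

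Of the 7 genes, all passed the filter on low values and 6 differed between the 3 libraries beyond counting noise, a share of 85.7% beside 38.7% of all tested genes. Smaller differences pass this test where reads are many, and these genes held between 49 and 3884 reads per library. On the log2(FPKM + 1) scale the median range of the 7 genes, highest minus lowest library, was 0.64, beside 0.17 over all tested genes. Of the 7, 6 were lowest in library 1 with Lgr4 as the exception, and 6 were highest in library 2 with Csf1 as the exception. Over all tested genes 32.6% were lowest in library 1 and 34.8% highest in library 2. With 1 library of each kind these counts describe the libraries and carry no replicate check.

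OPG varied most. Tnfrsf11b (ENSMUSG00000063727, mm10 chromosome 15, 54250619 to 54278484, minus strand) had 1.09, 6.38 and 3.09 FPKM in libraries 1, 2 and 3, resting on 53, 303 and 144 reads. It was highest in library 2 and lowest in library 1, and the exact Poisson 95% intervals of the 3 libraries, 0.815 to 1.42, 5.68 to 7.14 and 2.61 to 3.64 FPKM, did not overlap. Its level in library 2 was 5.86 times that in library 1 (exact 95% interval 4.37 to 8.01) and 2.07 times that in library 3 (1.69 to 2.54). The difference between libraries passed the test (chi-square test, adjusted p = 1.65e-40) and was the only one of the 7 that reached 2-fold on the log2(FPKM + 1) scale, where 5.89% of tested genes did. On that scale the mark was reached between libraries 2 and 1 only, and on plain FPKM Tnfsf11, Tnfrsf11a and Lgr4 also exceeded 2-fold. Its range ranked 264 among the 14011 tested genes. Cartilage and osteoblast cells are known sources of OPG, and their summed markers were 25.6 and 2.38 times as high in library 2 as in library 1. Library 3 against library 1 gave another order, with Tnfrsf11b 2.84 times as high, the cartilage sum 2.34 times and the osteoblast sum 0.702 times. The osteoblast genes split, with 7 of the 12 lowest in library 3 and 5 lowest in library 1. Col1a1 had 614, 1597 and 364 FPKM and Spp1 had 102, 527 and 357 FPKM in libraries 1, 2 and 3. The part of cartilage and osteoblast cells in the Tnfrsf11b values was not tested. In whole tissue, fewer cells of a type and less RNA per cell cannot be told apart.

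RANKL was lowest in library 1 and close in the other libraries. Tnfsf11 (ENSMUSG00000022015, chromosome 14, 78277445 to 78308043, minus strand) had 1.27, 2.73 and 2.62 FPKM, resting on 49, 103 and 97 reads in libraries 1, 2 and 3. The Poisson intervals were 0.938 to 1.68, 2.23 to 3.32 and 2.13 to 3.20 FPKM, so that library 1 lay apart and the other 2 overlapped. Library 2 was 2.16 times as high as library 1 (exact 95% interval 1.52 to 3.10) and library 3 was 2.07 times as high as library 1 (1.45 to 2.98). The libraries differed by more than counting noise (adjusted p = 0.000112, chi-square test), a call that rested on library 1, since without it the adjusted p was 0.885. On the log2(FPKM + 1) scale its range of 0.72 was matched or passed by 9.39% of tested genes.

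The ratio of RANKL to OPG therefore differed between libraries of the same group. Tnfsf11 stood at 1.17, 0.428 and 0.849 times the FPKM of Tnfrsf11b in libraries 1, 2 and 3, a mean of 0.814 ± 0.370 (SD, n = 3). The exact binomial 95% intervals, given the reads of both genes, were 0.774 to 1.75 in library 1, 0.339 to 0.537 in library 2 and 0.649 to 1.11 in library 3. Library 2 was thus the only one whose interval lay wholly below 1, with more OPG than RANKL RNA per base. Its ratio was 0.368 times that of library 1 (exact Fisher test on the reads, two-sided, adjusted p = 8.21e-05 over 9 comparisons) and 0.505 times that of library 3 (adjusted p = 0.000309). Library 3 had 0.729 times the ratio of library 1, which did not pass the same test (adjusted p = 0.286). A ratio within a library does not depend on how libraries are scaled, but it does depend on the listed lengths, 2236 bases for Tnfsf11 and 2818 for Tnfrsf11b.

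**Figure D2:**
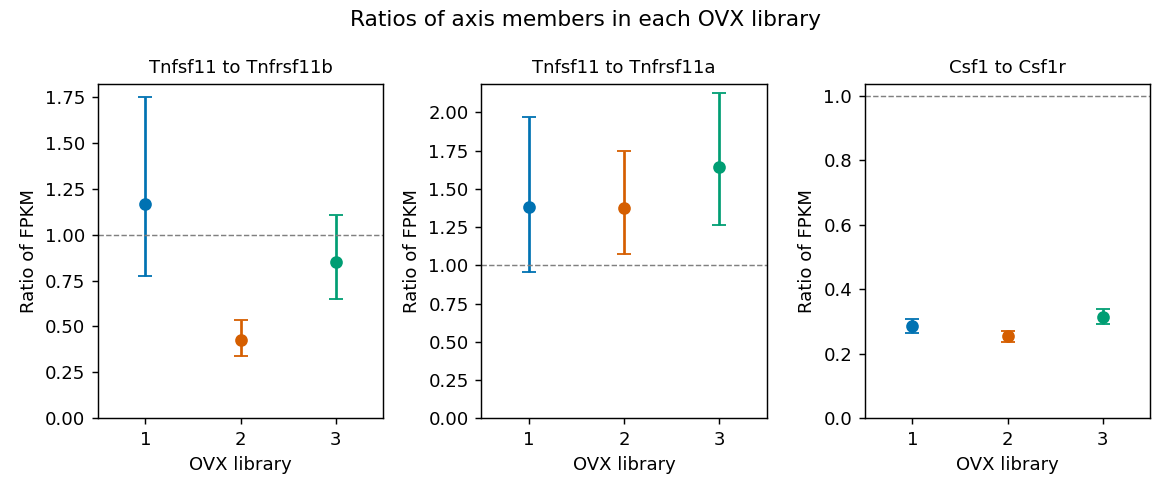
Ratio of FPKM of Tnfsf11 to Tnfrsf11b, Tnfsf11 to Tnfrsf11a and Csf1 to Csf1r in OVX libraries 1, 2 and 3, with exact binomial 95% intervals as bars and a dashed line at 1. The Tnfsf11 to Tnfrsf11b ratio is 0.428 in library 2, against 1.17 and 0.849 in libraries 1 and 3, while the Tnfsf11 to Tnfrsf11a ratio stays between 1.37 and 1.64.

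RANK was lower in library 1 as well. Tnfrsf11a (ENSMUSG00000026321, chromosome 1, 105780718 to 105847981, plus strand) had 0.919, 1.99 and 1.60 FPKM, resting on 95, 201 and 158 reads. Library 1 was lowest, and its Poisson interval of 0.743 to 1.12 FPKM did not reach those of libraries 2 (1.73 to 2.29) and 3 (1.36 to 1.87), which overlapped. Library 2 was 2.17 times as high as library 1 (exact 95% interval 1.69 to 2.80), and the difference between libraries passed (chi-square test, adjusted p = 5.96e-08) but did not without library 1 (adjusted p = 0.124). The ratio of Tnfsf11 to Tnfrsf11a was 1.38, 1.37 and 1.64 in libraries 1, 2 and 3. None of its 3 pairwise differences passed (exact Fisher test on reads, adjusted p from 0.425 to 1 over 9 comparisons), with intervals of 0.957 to 1.97, 1.07 to 1.75 and 1.26 to 2.13. Differences within those intervals were not detectable at this depth.

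RANK sits on osteoclasts and their precursors, and part of the osteoclast gene list had the same order of libraries as Tnfrsf11a. The protease gene Ctsk had 85.4, 397 and 330 FPKM, the phosphatase gene Acp5 109, 368 and 253 FPKM and the fusion gene Dcstamp 0.804, 3.68 and 1.98 FPKM in libraries 1, 2 and 3. However, 6 of the 15 tested genes of the list, Itgb3, Car2, Ostm1, Clcn7, Tcirg1 and Sigirr, did not share this order. The integrin gene Itgb3 had 97.2, 71.8 and 109 FPKM in libraries 1, 2 and 3, lowest in library 2, and Car2 had 549, 544 and 591 FPKM. The megakaryocyte sum, at 1508, 996 and 1563, had the same order of libraries as Itgb3. The erythroid sum, at 43364, 48410 and 55601, was highest in library 3 like Car2. The part of such other cells in the Itgb3 and Car2 values was not tested. Sigirr had 6.56, 5.56 and 5.27 FPKM, highest in library 1. The summed FPKM of 16 osteoclast genes was 1128, 1816 and 1618, with Car2 as a large part. Library 2 over library 1 was 1.61 for the sum, 0.991 for Car2, 4.65 for Ctsk and 3.37 for Acp5. The sum is therefore no measure of the difference of each gene. Of the 15 tested genes of the list, 9 were lowest in library 1, beside 32.6% of all tested genes. In the same list 14 (93.3%) differed between libraries, beside 38.7%. Calcr, the calcitonin receptor that marks mature osteoclasts, was below the filter at 0.207, 0.941 and 0.603 FPKM. The part of osteoclast number in the Tnfrsf11a values was not tested.

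Lgr4 followed another pattern. Lgr4 (ENSMUSG00000050199, chromosome 2, 109917647 to 110014257, plus strand) had 1.54, 3.35 and 1.37 FPKM, resting on 157, 332 and 133 reads in libraries 1, 2 and 3. Library 2 was high and the Poisson intervals of libraries 1 (1.31 to 1.81) and 3 (1.14 to 1.62) overlapped. Library 2 was 2.17 times as high as library 1 (exact 95% interval 1.79 to 2.64) and 2.45 times as high as library 3 (2.0 to 3.02). The 3 libraries differed (chi-square test, adjusted p = 2.31e-23), whereas without library 2 the adjusted p was 0.463. The osteoblast marker sum had the same order of libraries, with library 2 at 2.38 times library 1 and 3.39 times library 3. Of its 12 genes, however, 5 were lowest in library 1. The adipocyte sum also had this order, at 1.98 and 3.07 times. It was led by the adipocyte gene Cfd with 55.1, 184 and 9.25 FPKM in libraries 1, 2 and 3. The part of osteoblasts or adipocytes in the Lgr4 values was not tested.

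Traf6 was the steadiest of the axis. Traf6 (ENSMUSG00000027164, chromosome 2, 101678429 to 101701669, plus strand) had 7.19, 7.69 and 7.22 FPKM, resting on 980, 1021 and 941 reads in libraries 1, 2 and 3. All 3 Poisson intervals overlapped, and the difference did not pass (chi-square test, adjusted p = 0.514). Its range of 0.084 on the log2(FPKM + 1) scale was matched or passed by 81.4% of tested genes. Library 2 stood at 1.07 times library 1 with an exact 95% interval of 0.978 to 1.17.

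M-CSF and its receptor differed by smaller factors. Csf1 (ENSMUSG00000014599, chromosome 3, 107741048 to 107760469, minus strand) had 9.60, 12.0 and 12.0 FPKM, resting on 876, 1067 and 1052 reads in libraries 1, 2 and 3. Library 1 was low and the other libraries were level, at 1.25 and 1.26 times library 1 (exact 95% intervals 1.14 to 1.37 and 1.15 to 1.37). The difference passed (chi-square test, adjusted p = 1.61e-05) but not without library 1 (adjusted p = 0.914). Il34, which encodes the other ligand of the M-CSF receptor, had 5.61, 6.21 and 5.74 FPKM and did not pass (adjusted p = 0.758). Csf1 RNA was the more abundant of these ligands per base in each library.

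Csf1r (ENSMUSG00000024621, chromosome 18, 61105572 to 61132149, plus strand) had 33.6, 47.2 and 38.3 FPKM, resting on 2839, 3884 and 3090 reads in libraries 1, 2 and 3. No Poisson intervals overlapped, and library 2 was 1.40 times as high as library 1 (exact 95% interval 1.34 to 1.47) and 1.23 times as high as library 3 (1.18 to 1.29). The difference passed (chi-square test, adjusted p = 1.65e-37), also with any 1 library left out. The summed FPKM of 12 other monocyte and macrophage genes was 767, 757 and 769 in libraries 1, 2 and 3, with library 2 lowest. Of the 13 genes of that list with Csf1r included, 5 were highest in library 2, beside 34.8% of all tested genes. The complement gene C1qb had 157, 152 and 151 FPKM and the macrophage gene Adgre1 24.3, 23.1 and 24.6 FPKM, with no difference past the test for either (chi-square test, adjusted p = 0.108 for C1qb and 0.215 for Adgre1). In GENCODE M21 the gene Hmgxb3 lies on the opposite strand across 873 exonic bases of Csf1r and held 537, 550 and 568 reads. The Csf1r entry used here has other limits and is shorter, at 4885 against 5774 bases. Whether it holds the overlapping bases is not known. The labels do not state whether counting used the strand, so reads of these genes may be mixed.

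Csf1 stood at 0.285, 0.254 and 0.315 times the FPKM of Csf1r in libraries 1, 2 and 3, a mean of 0.285 ± 0.030 (SD, n = 3). The exact binomial 95% intervals were 0.264 to 0.308, 0.237 to 0.272 and 0.293 to 0.338. Library 2 had 0.807 times the ratio of library 3 (exact Fisher test on reads, two-sided, adjusted p = 8.21e-05 over 9 comparisons), while library 2 against library 1 gave 0.890 times (adjusted p = 0.0568) and library 3 against library 1 gave 1.10 times (adjusted p = 0.112). The listed length of Csf1r, 4885 bases, differs from the 5774 bases of its merged exons in GENCODE M21, whereas the lengths of the other 6 genes are the same, so the size of this ratio depends on the annotation used.

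**Figure D3:**
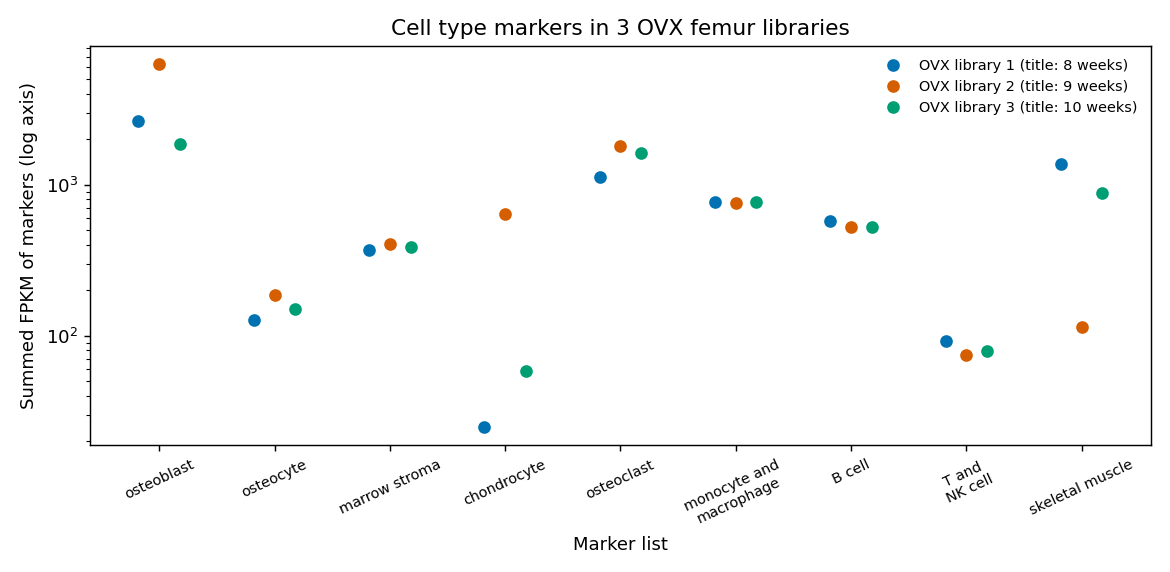
Summed FPKM (log axis) of 9 cell type marker lists in OVX libraries 1, 2 and 3, leaving Csf1r out of the monocyte and macrophage list. Cartilage markers reach 638 in library 2, against 24.9 and 58.2 in libraries 1 and 3, and monocyte and macrophage markers lie between 757 and 769 in all 3 libraries.

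Around the axis, 6 lists of pathway genes held 94 genes, 86 of them tested. Of these, 51 (59.3%) differed between libraries beyond counting noise, and 6 (6.98%) spanned 2-fold, beside 38.7% and 5.89% of all tested genes. Their median range was 0.16 on the log2(FPKM + 1) scale, beside 0.17 for all tested genes. Spi1, Grb2 and Sirpa stand in 2 lists each.

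Of 25 genes for RANK adaptors, kinases and NF-kB, 7 (28.0%) differed, beside 38.7% of all tested genes. Of these 7, 4 were highest in library 1, 2 in library 2 and 1 in library 3. The median range of the 25 genes was 0.11 and none spanned 2-fold. The adaptor Traf5 had 5.59, 3.87 and 4.12 FPKM in libraries 1, 2 and 3 (adjusted p = 5.51e-07) and the kinase Ikbkb, which frees NF-kB, 7.30, 6.33 and 6.64 FPKM (adjusted p = 9.07e-07), both highest in library 1. Nfkbia, the inhibitor that NF-kB itself induces, had 65.2, 77.2 and 65.1 FPKM (adjusted p = 9.01e-07) and was highest in library 2. The kinase Mapk14 had 63.9, 59.5 and 59.9 FPKM (chi-square test, adjusted p = 3.34e-05).

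Of 13 osteoclast transcription factors and repressors, 9 (69.2%, beside 38.7% of all tested genes) differed, 6 of them highest in library 2, 2 in library 1 and 1 in library 3. Nfatc1, the master regulator induced by RANKL, had 10.4, 14.7 and 12.3 FPKM in libraries 1, 2 and 3 (adjusted p = 1.66e-17). Fosl2 had 11.2, 14.1 and 13.1 FPKM (adjusted p = 3.30e-09) and was also lowest in library 1. Fos, which is needed for osteoclast formation and is an immediate early gene, had 4.72, 6.59 and 8.41 FPKM (chi-square test, adjusted p = 4.07e-08).

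Of 11 costimulatory receptors and kinases, 10 (90.9%, beside 38.7% of all tested genes) differed, 7 of them highest in library 1, with a median range of 0.12, below the 0.17 of all tested genes. Oscar, a receptor of osteoclasts, was the exception in size, with 1.28, 5.62 and 4.03 FPKM in libraries 1, 2 and 3 (adjusted p = 4.75e-17), and it also stands in the osteoclast list above. Sirpa had 67.7, 61.2 and 60.5 FPKM (adjusted p = 1.75e-12), the kinase Syk 72.5, 67.2 and 71.8 FPKM (adjusted p = 6.55e-12) and the receptor Trem2 4.20, 3.17 and 2.76 FPKM (adjusted p = 2.40e-06), each highest in library 1. Sirpa encodes an inhibitory receptor, so the list is wider than costimulation and its counts give no direction for it. Of 13 genes of the M-CSF receptor pathway, 9 (69.2%) differed, 6 of them highest in library 1, and none spanned 2-fold. They included the adaptor Sh2b3 at 39.3, 33.2 and 36.0 FPKM (adjusted p = 1.72e-11) and the phosphatase Ptpn6 at 107, 100.0 and 100.0 FPKM (chi-square test, adjusted p = 7.67e-06). Of the 13 genes, 4 were highest in library 2 like Csf1r, beside 34.8% of all tested genes, and only 1 of these passed. It was the PI3-kinase subunit gene Pik3r1, at 21.7, 24.2 and 23.3 FPKM (chi-square test, adjusted p = 0.00233). The summed FPKM of the list was 573, 553 and 559 in libraries 1, 2 and 3, lowest in library 2.

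**Figure D4:**
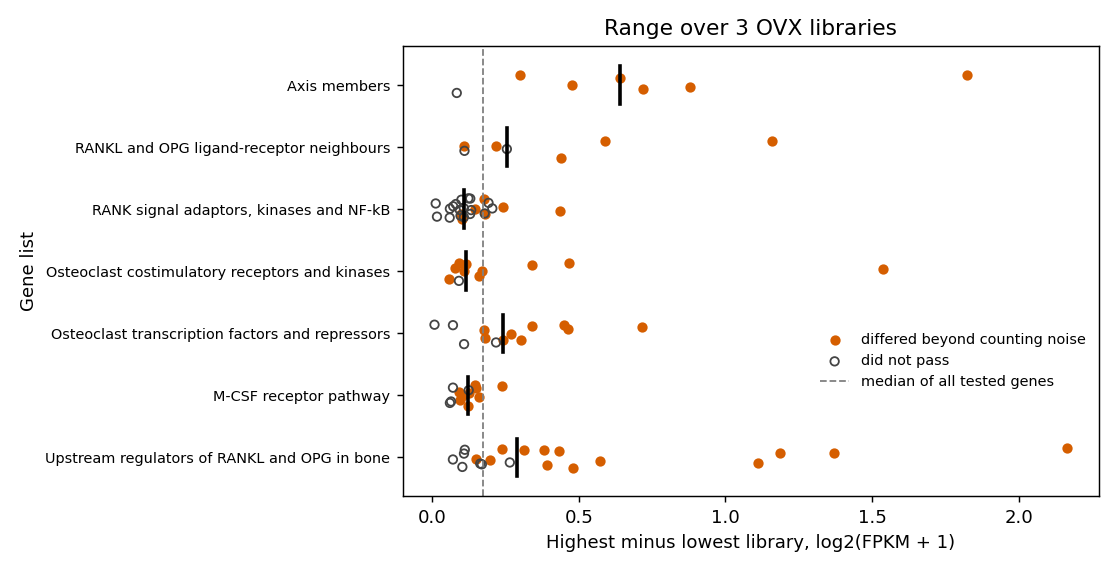
Highest minus lowest OVX library on the log2(FPKM + 1) scale for the 7 axis genes and the tested genes of 6 pathway lists, filled where the difference passed the chi-square test, with a black bar at each list's median. The axis genes have a median of 0.64 and the RANK adaptors of 0.11, beside a dashed line at 0.17 for all tested genes.

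Of 20 tested regulators of RANKL and OPG in bone, 13 (65.0%, beside 38.7% of all tested genes) differed, 11 of them highest in library 2 and 2 in library 1, and 4 spanned 2-fold. Pth1r, the parathyroid hormone receptor, had 8.51, 41.6 and 9.78 FPKM in libraries 1, 2 and 3, and Vdr, the vitamin D receptor, had 3.06, 9.50 and 5.29 FPKM (adjusted p = 2.40e-71). Both hormones are known to raise RANKL in osteoblast lineage cells, and both receptors are also carried by cartilage or bone cells. The cartilage and osteoblast marker sums were highest in library 2. The osteocyte gene Sost, also in this list, was lowest there, with 36.5, 24.2 and 32.6 FPKM (chi-square test, adjusted p = 1.06e-20). Most osteocyte genes ran the other way. Of 7 tested, 5 were highest in library 2, beside 34.8% of all tested genes, and 1 was lowest there. The osteocyte gene Dmp1 had 17.4, 62.8 and 30.0 FPKM in libraries 1, 2 and 3. The part of these cell types in the Pth1r and Vdr values was not tested. Lifr, a receptor chain for cytokines of the IL-6 family, had 6.18, 14.5 and 8.50 FPKM (adjusted p = 1.20e-142), and Ctnnb1, the Wnt mediator beta-catenin that induces OPG, had 66.6, 87.0 and 67.1 FPKM (chi-square test, adjusted p = 3.24e-62). Pth1r, Vdr, Lifr and Ctnnb1 were all highest in library 2, like Tnfrsf11b.

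Of 14 ligand, receptor and shedding genes beside the axis, 7 were tested and 5 (71.4%, beside 38.7% of all tested genes) differed. Mmp14, a membrane protease that can shed RANKL, had 11.0, 25.8 and 15.6 FPKM in libraries 1, 2 and 3 (adjusted p = 1.64e-136), and the proteoglycan gene Sdc1, whose product can bind OPG, had 8.89, 13.9 and 11.6 FPKM (adjusted p = 2.22e-13). Both were lowest in library 1. Adam10, another sheddase, had 60.6, 59.0 and 63.7 FPKM (adjusted p = 0.00116). The R-spondin gene Rspo3, a ligand of Lgr4, had 1.18, 1.71 and 0.998 FPKM (chi-square test, adjusted p = 0.0173). With 1 library left out in turn, the number of pathway genes that differed ran from 26, without library 2, to 48, without library 3.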

How the data were processed

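The authors deposited FPKM for every gene in each library, beside the gene length. Per the submitters' processing notes, reads were handled with Trimmomatic, FastQC, STAR and featureCounts on mm10. Not given in the sources used here: tool versions, strandedness, annotation and how FPKM were computed. The table has 3 further columns of values whose names match no label, and these were not used. The limma fit of Zin against OVX, its alternatives and the exact permutation tests of ratios between groups, planned for both groups, were therefore not run, nor was the search for genes of like pattern, since 3 libraries are too few for a correlation.

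The product of FPKM and length was a whole number of equal steps, to within 0.01 read, for 100% of values, so reads per gene could be recovered. The totals behind the FPKM were 17279919, 16845977 and 16533661 in libraries 1, 2 and 3. Intervals (95%) and floors hold counting error alone, because no molecular identifiers show which reads are independent molecules. The floor for a gene at 0 is 3 reads, which is 1.76e-05%, 1.77e-05% and 1.81e-05% of the libraries.

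Genes averaging 1 FPKM or more were tested for a difference between libraries by a chi-square test of reads against library totals, adjusted by Benjamini-Hochberg over all 14011 genes. The test was checked on simulated reads with counting noise and planted changes alone. That check cannot show how the test behaves under the real spread between libraries. Ratios were compared by exact Fisher tests adjusted over 9 comparisons. Range is the highest minus the lowest library on log2(FPKM + 1), where differences of low genes come out too small, with 2-fold as a threshold. The members and lists were chosen with earlier results of these data known, and the between-library tests after the zingerone columns could not be tied to labels. All 225 listed symbols were in the table. All 7 members are named, and from each pathway list the genes past the threshold or, beyond 4, the 4 with the smallest p, from each cell type list the 1 or 2 genes with the highest mean. Of all these lists not every such gene is reported here, and Acp5, Dcstamp, Calcr, Itgb3, Ostm1, Clcn7, Tcirg1, Sigirr, Spp1, Sost, Pik3r1, Adgre1, Snorc and the genes of the closing observations were chosen after their values were seen. Software was scipy 1.17.1, pandas 2.3.3 and numpy 2.4.6 under Python 3.11.15, with figures by matplotlib 3.10.9.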

Additional observations from a re-analysis of the deposited data

How the results depend on the processing

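All alternatives to the between-library tests were chosen after seeing the data. The count of genes that differed was 5418, 6205 with no filter, 3787 when genes had to average 5 FPKM, 5234 with the totals behind the FPKM, and 2527 to 4177 with 1 library left out, the lowest without library 2 (3478 without library 1). Pathway genes that differed numbered 51, and 26 to 48 with 1 library left out. The count at least 2-fold was 825, against 1254 after adding 0.1 instead of 1, 247 after adding 5, 307 when genes had to average 5 FPKM, and 278 to 603 with 1 library left out. Likewise 6 of 7 members passed with no filter and with the other totals. Without library 1 Tnfsf11 (adjusted p = 0.885), Tnfrsf11a (0.124) and Csf1 (0.914) did not pass, and without library 2 Lgr4 (0.463) did not. Means of the members moved by less than 1 SD under median-of-ratios scaling. Its factors were 1.00207, 1.00193 and 1.00171 in libraries 1, 2 and 3, so it could hardly move them and is no check. Mean ratios, which library scaling cannot change, moved by less than 1 SD with FPKM + 0.1. Leaving out 1 of 3 values cannot shift a mean that far. With 1 library dropped, the mean ratio of Tnfsf11 to Tnfrsf11b ran from 0.639 to 1.01. No paired analysis was possible because only columns of the OVX group could be tied to samples. Depth limits Tnfsf11 most, at 49 to 103 reads per library.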

Other observations

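The R-spondin gene Rspo4, a ligand of Lgr4 and its relatives, lay below the filter and was picked out after its values were seen. It had 76 reads, or 1.90 FPKM, in library 2 and 0 reads in libraries 1 and 3, where 3 reads would have been 0.0732 and 0.0765 FPKM, so that it was at least 26.0-fold higher in library 2 than in library 1 and at least 24.9-fold higher than in library 3. Lgr6, a relative of Lgr4, had 12, 84 and 71 reads, or 0.101, 0.728 and 0.627 FPKM, in libraries 1, 2 and 3. Rspo2 ran the other way, at 1.12, 0.557 and 0.663 FPKM.

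Families set by symbol, after seeing the data, place the axis among its relatives. Of 16 tested protein-coding genes whose symbols begin with Tnfrsf, 5 differed between libraries (chi-square test as above), where 38.7% of all tested genes did. Tnfrsf11b and Tnfrsf11a had the widest ranges of the 16, at 1.82 and 0.64 on the log2(FPKM + 1) scale, followed by Tnfrsf19 at 0.61, with 9.81, 15.5 and 10.1 FPKM in libraries 1, 2 and 3. The TNF receptor genes Tnfrsf1a and Tnfrsf1b, by contrast, had 48.5, 51.0 and 48.9 FPKM and 28.2, 29.2 and 28.8 FPKM, and neither passed. Of 6 tested genes beginning with Tnfsf, Tnfsf11 had the widest range at 0.72, and 3 differed, beside the same 38.7%. The median range was 0.23 over the Tnfrsf and 0.27 over the Tnfsf genes, beside 0.17 over all tested genes.

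Of 8 receptors for blood growth factors, 7 differed between libraries, beside 38.7% of all tested genes, and none spanned 2-fold. Several of them are abundant, and small differences pass the test where reads are many. Csf1r and Csf2rb were highest in library 2. Csf2rb, the shared chain of the GM-CSF and IL-3 receptors, stood at 16.9, 19.5 and 18.3 FPKM in libraries 1, 2 and 3. Csf3r, the G-CSF receptor of neutrophils, had 94.5, 81.6 and 84.0 FPKM and Csf2ra 103, 90.8 and 88.0 FPKM, both highest in library 1.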
